A study of Homo sapiens with 4 samples.

Results

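γH2AX was examined at 10 genes that the transcription factor p53 is known to switch on: CDKN1A, MDM2, GADD45A, BBC3, BAX, FAS, SESN2, TNFRSF10B, BTG2 and PPM1D. The genes were chosen by name out of 19974 protein-coding genes on chromosomes 1 to 22 and X. What was measured at them is the position of γH2AX, the histone variant H2A.X phosphorylated at its tail, which marks chromatin around DNA double-strand breaks. Chromatin immunoprecipitation and sequencing was done in SK-UT1, an established uterine leiomyosarcoma cell line, in 4 conditions with 1 library each. The DMSO library came from cells given 0.1% of that solvent, and the OTS186935 library from cells given 1 µM of this inhibitor of the histone methyltransferase SUV39H2. The doxorubicin library came from cells given 0.5 µM of this topoisomerase II poison, and the combination library from cells given both drugs at those doses. The length of treatment is not given in the sources used here. With 1 library per condition there is no replicate error and no difference was tested, so values are set side by side, where a row of 4 values stands without names in the order DMSO, OTS186935, doxorubicin, combination. Every member was looked up in its RefSeq gene body plus 5 kb on either side, here called its window, on the genome build hg38.

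p53 is stabilised when DNA is damaged and then drives genes for cell cycle arrest, repair, cell death and its own shutdown. MDM2 and PPM1D close that loop, MDM2 by marking p53 for destruction and PPM1D by removing damage-induced phosphates, γH2AX among its known substrates. Neither p53 activity nor RNA was measured in these libraries, so the cell line label was not checked against expressed markers.

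The 4 peak lists held between 29213 and 72858 peaks on these chromosomes once overlapping rows were joined, and the 3 treated lists had 82.0%, 65.2% and 40.1% of the DMSO number. All lists were shallow. The number of fragments stacked at a summit, solved from the deposited values, had a median of 7 or 8 in each library. Where local background was at its floor, the lowest height called was 3 fragments in 3 of the libraries and 4 in the combination, and more was needed where the background was higher. A gene without a peak is therefore one at which no narrow peak was called at this depth, and it may still carry γH2AX. The median peak was 397 to 465 bp wide by library, and enrichment spread over longer stretches was not measured here.

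All 10 genes had a γH2AX peak in the DMSO library, 9 in the OTS186935 library, 5 under doxorubicin and 4 under the combination. A window drawn the same way held a peak at 78.3%, 71.7%, 65.1% and 50.5% of all protein-coding genes. Long genes hold more peaks, and the members' windows ran from 13.1 kb (GADD45A) to 76.1 kb (PPM1D). Among the 13028 protein-coding genes with windows in that range, 76.6%, 69.1%, 61.0% and 44.7% had a peak. The members thus stood above the background in the DMSO and OTS186935 libraries, and at or under it, by about 1 gene in 10, in the others. When each list was reduced to its 29619 rows of highest −log10 p, so that list length no longer differed, 7, 6, 3 and 4 members had a peak, beside 49.4%, 48.8%, 50.2% and 50.5% of all genes.

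The member windows held 19, 16, 8 and 6 peaks. Per Mb of window this was 51.3, 43.2, 21.6 and 16.2 peaks, beside 35.1, 28.2, 22 and 13.5 over all protein-coding genes. Density over genes with windows of like length was not taken. It was 89.2, 48.9, 46.0 and 25.9 at immediate early genes, whose median window was 14.2 kb. At homologous recombination genes, with a median of 61.3 kb, it was 33.5, 26.6, 12.2 and 9.6. The doxorubicin count was 42.1% of the DMSO count at the members and 62.7% over all genes. It was 68.1% at 43 other p53 target genes, 51.6% at immediate early genes and 36.5% at homologous recombination genes, lists described further on. Most summits lay inside the gene body: 15 of 19, 13 of 16, 8 of 8 and 4 of 6. The body took up from 3.1 of 13.1 kb of the window (GADD45A) to 66.1 of 76.1 kb (PPM1D). The share of summits in bodies over all genes was not taken, so this count is no trait of the members.

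**Figure D1:**
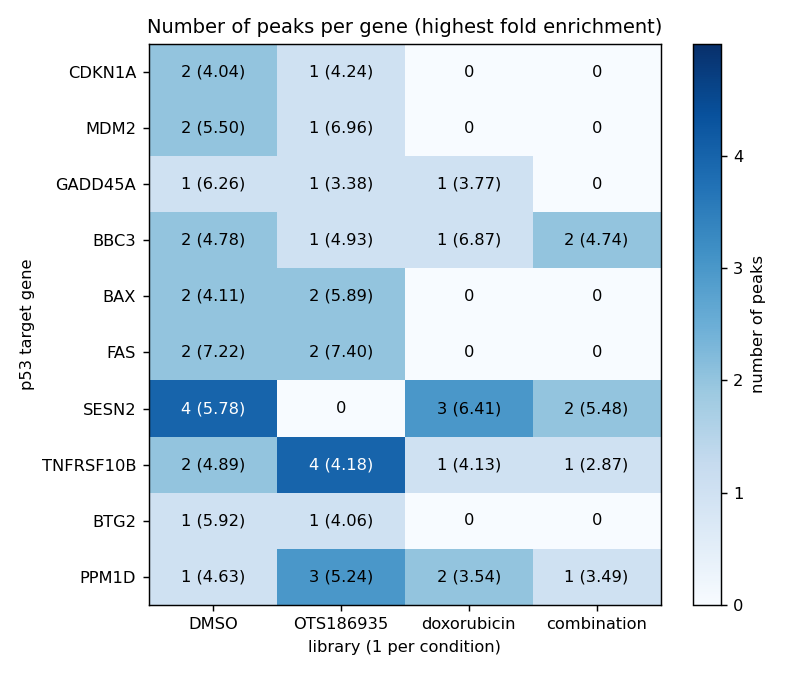
Number of γH2AX peaks in the gene body plus 5 kb of each p53 target gene (rows) in each library (columns, 1 per condition), with the highest fold enrichment over local background in parentheses. CDKN1A, MDM2, BAX, FAS and BTG2 have peaks in the first 2 columns and 0 in the last 2, while SESN2 has 4, 0, 3 and 2.

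Which members kept a peak differed between the drugs. The commonest pattern, a peak with DMSO and OTS186935 and none with doxorubicin or the combination, was shared by 5 of the 10 members: CDKN1A, MDM2, BAX, FAS and BTG2. That pattern was found at 6.72% of all protein-coding genes. It was singled out as the commonest here, and its share among genes with windows as long as the members' was not taken. Among genes with a DMSO peak, 27.3% of those with such windows had none with doxorubicin, against 22.7% of all. BBC3, TNFRSF10B and PPM1D had a peak in all 4 libraries, as did 39.7% of all genes. GADD45A lacked one with the combination alone (15.2% of all genes), and SESN2 lacked one with OTS186935 alone (2.15% of all genes). The pattern of the 5 depends on list length and on the window. With lists of equal length MDM2 and FAS kept it, while CDKN1A and BAX had 0 DMSO peaks and BTG2 had 0 OTS186935 peaks. At a −log10 q of 5 or more FAS alone kept it. With flanks of 10 kb, MDM2 had 1 and BAX 2 peaks with doxorubicin, and CDKN1A and BAX 1 each with the combination. Of BBC3, TNFRSF10B and PPM1D, BBC3 alone kept a peak in all 4 libraries with lists of equal length. In the gene body alone, TNFRSF10B had no combination peak.

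The peaks at the members fell on 27 separate sites, of which 2 were called in all 4 libraries, 4 in 3, 8 in 2 and 13 in 1. Of the 19 DMSO peaks, 11 overlapped an OTS186935 peak, or 57.9% (exact binomial 95% interval 33.5 to 79.7), beside 44.4% of all DMSO peaks. With doxorubicin 7 of 19 were overlapped, or 36.8% (16.3 to 61.6), beside 35.1%, and with the combination 4 of 19, or 21.1% (6.1 to 45.6), beside 23.6%. Each interval contains the value over all peaks. It covers counting error only and takes peaks as independent, though SESN2 alone held 4 of the 19, so it is no test of the members. A peak absent from DMSO was seen at 8 of the 27 sites, 5 of them with OTS186935 alone. Counts of sites by library were not taken over all peaks, so they describe the members only. Over all DMSO peaks, too, most were not overlapped by a given treated library.

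**Figure D2:**
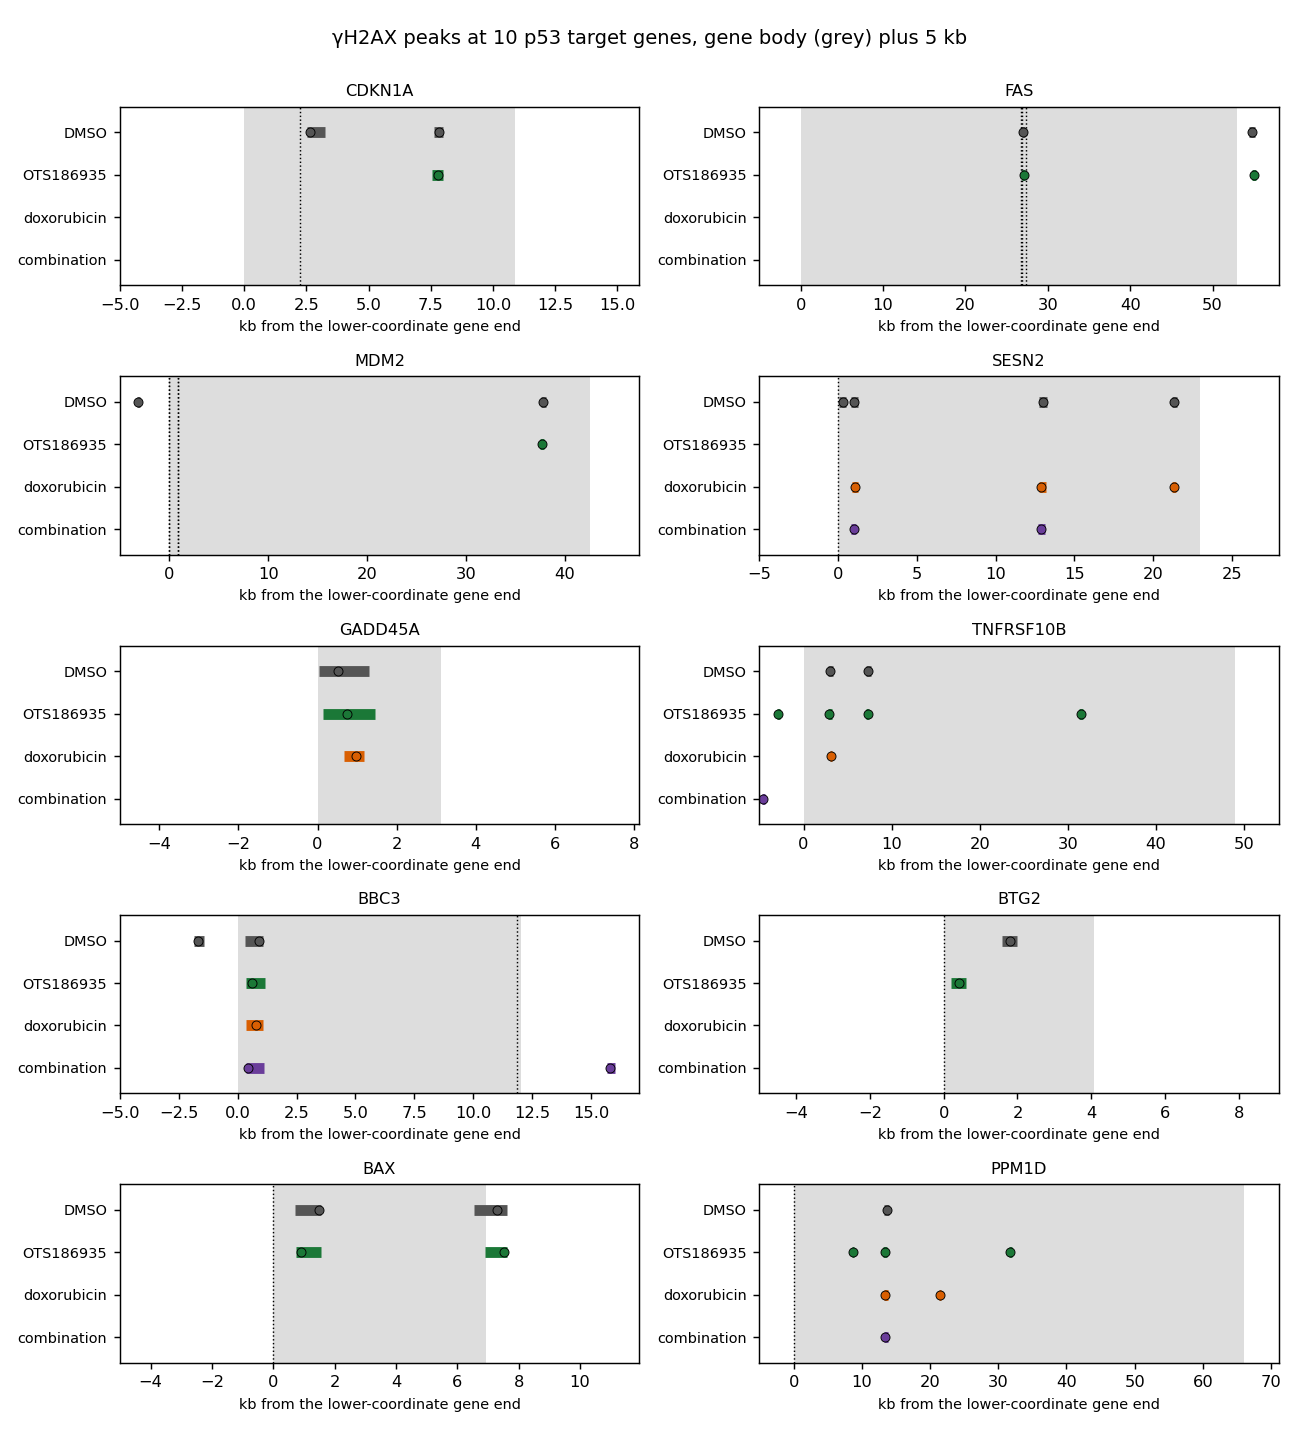
Position of each γH2AX peak (bar) and its summit (circle) along the 10 genes, in kb from the gene end of lower coordinate, with 1 row per library, the gene body in grey and annotated start sites dotted. At every gene but BTG2 at least 1 position recurs between libraries, and at BBC3 and PPM1D 1 recurs in every library. The doxorubicin and combination rows are empty at CDKN1A, MDM2, BAX, FAS and BTG2.

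A match to the p53 response element was found in promoter windows of FAS, where a peak lay close by, and of MDM2, where none did, and both sequences are shown for that contrast. The p53 response element is a pair of like decamers bound by the p53 tetramer. It was searched by its consensus on both strands, with a spacer of up to 13 bases, up to 3 mismatches and the core C and G of each decamer kept, in RefSeq promoter windows (GRCh38.p14) that run from 250 bases before a start site to 50 bases after it. Such a match was found in 12.8% of the 35116 windows of the table, in 3 of the 13 windows of the members, and in 2 of the 8 members in the table. The 3 windows hold 2 separate matches, since 2 overlapping MDM2 windows share the same one. The share by gene over the table was not taken. GADD45A and TNFRSF10B had no entry. The 250 bases before 1 FAS start site (chr10:88991181-88991430, plus strand) and before an inner MDM2 start site (chr12:68808767-68809016, plus strand) follow 5′ to 3′, with the matched pair of decamers in capitals.
FAS: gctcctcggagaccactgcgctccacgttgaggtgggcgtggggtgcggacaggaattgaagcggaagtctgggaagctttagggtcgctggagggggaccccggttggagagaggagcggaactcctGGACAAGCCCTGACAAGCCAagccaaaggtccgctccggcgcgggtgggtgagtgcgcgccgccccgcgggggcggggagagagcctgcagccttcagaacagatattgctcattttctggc
MDM2: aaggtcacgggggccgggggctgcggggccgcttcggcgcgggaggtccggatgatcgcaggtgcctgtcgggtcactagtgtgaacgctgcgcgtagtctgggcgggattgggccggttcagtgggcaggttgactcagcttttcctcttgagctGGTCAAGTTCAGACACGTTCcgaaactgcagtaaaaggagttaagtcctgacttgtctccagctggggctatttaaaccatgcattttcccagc
Both matches had 2 mismatches and a spacer of 0. The first FAS decamer fitted the consensus exactly, as a decamer did in 6.63% of windows. A match is a run of letters and not a measured binding site.

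The FAS peak around the inner annotated start sites, with its DMSO summit 27004 bp inside the lower end of the gene's extent, lay beside that match. With DMSO it covered the first 94 of the 250 printed bases and ended 34 bases before the capitals, and with OTS186935 it covered 109 and ended 19 bases before them. Neither doxorubicin nor the combination had a peak there. At MDM2 no library had a peak over the printed bases, and the nearest member peak was 3520 bp away, in DMSO. No other annotated start window of a member was touched by a peak, except that of SESN2, which the DMSO peak entered by 12 bp, and a further FAS window. The promoter windows of the members had a GC content of 48.0% to 74.7%, beside a median of 58.7% over the table.

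CDKN1A, GADD45A and BTG2 serve cell cycle arrest: CDKN1A encodes the kinase inhibitor p21, GADD45A a stress protein of checkpoint and repair, and BTG2 an antiproliferative regulator of mRNA turnover. CDKN1A (chromosome 6, 36676463 to 36687332) had 2 DMSO peaks, both inside the gene. The summit of the first was 386 bp after the start site and had 7 fragments and a fold enrichment of 3.15 over local background, the authors' value for each peak. The other, 5574 bp after the start, had 10 fragments (4.04-fold) and was also called with OTS186935, with 9 fragments (4.24-fold). The CDKN1A window also holds the noncoding PANDAR and DINOL and the pseudogene LAP3P2, and no summit fell in them.

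GADD45A (chromosome 1, 67685201 to 67688334) had the tallest DMSO summit of any member, at 15 fragments (exact Poisson 95% interval 8.4 to 24.7, for counting error only) and 6.26-fold. At the same site the summit was 5 fragments (1.6 to 11.7) with OTS186935 and 5 with doxorubicin, at 3.38-fold and 3.77-fold, and the combination had no peak. The DMSO interval overlapped those of both drugs. This peak was also broad, 1277 bp wide with DMSO and 1312 bp with OTS186935, but 521 bp with doxorubicin, where the median peak of these libraries was 465, 448 and 405 bp.

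BTG2 (chromosome 1, 203305519 to 203309602) had 1 peak with DMSO and 1 with OTS186935, at different sites. The DMSO summit lay 1791 bp after the start, with 11 fragments (5.92-fold), and the OTS186935 summit 418 bp after the start, with 7 fragments (4.06-fold). The gene is counted as having a peak in both libraries, but no site was shared. The window includes part of the noncoding BTG2-DT, in which neither summit fell.

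MDM2 and PPM1D feed back on p53. MDM2 (chromosome 12, 68808172 to 68850686) had a DMSO peak 3168 bp before the start, with 5 fragments (3.03-fold), that lay in the pseudogene SZRD1P1. Its other site was inside the gene, 4687 to 4795 bp from the 3′ end, with 7 fragments (5.50-fold) with DMSO and 9 (6.96-fold) with OTS186935, the latter above 92.7% of peaks of its own list by −log10 p. That position also lies within the annotated extent of CPM, a carboxypeptidase gene, so the peak cannot be assigned to MDM2 rather than CPM.

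PPM1D (chromosome 17, 60600193 to 60666280) carried 1 of the 2 sites called in all 4 libraries, 13415 to 13735 bp into the gene. Its summit was 9, 10, 6 and 6 fragments, at 4.63-fold, 5.24-fold, 3.30-fold and 3.49-fold. The 4 summits lay within 320 bp of each other and their counting intervals overlapped. Further PPM1D peaks were called in 1 library each, 2 with OTS186935 (6 and 5 fragments) and 1 with doxorubicin (4 fragments). Its window also holds RNU6-623P, a U6 pseudogene, which none of these summits touched.

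BBC3 and BAX act at mitochondria in cell death: BBC3 encodes PUMA, which frees BAX and BAK to permeabilise the outer membrane. BBC3 (chromosome 19, 47220824 to 47232860, minus strand) carried the other site called in all 4 libraries, 418 to 887 bp inside the 3′ end of the gene and over 10 kb from the start site. Its summit held 14 fragments with DMSO (7.7 to 23.5), 14 with OTS186935, 21 with doxorubicin (13 to 32.1) and 11 with the combination (5.5 to 19.7). The fold enrichments were 4.26, 4.93, 6.87 and 3.90. The doxorubicin peak was the tallest of all member peaks and stood above 99.4% of the peaks of its own list, and its interval overlapped those of the other libraries.

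A further BBC3 peak with DMSO lay 1686 bp past the 3′ end (14 fragments, 4.78-fold), and one with the combination lay 3770 bp outside the 5′ end (9 fragments, 4.74-fold). These were at opposite ends of the gene and were each called in 1 library. MIR3190 and MIR3191, microRNA genes, share the BBC3 window, and no summit fell in them.

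BAX (chromosome 19, 48954875 to 48961798) had the same 2 sites with DMSO and OTS186935 and none with doxorubicin or the combination. The site 890 to 1485 bp after the start had 8 fragments with DMSO (4.11-fold) and 11 with OTS186935 (5.89-fold), and the site over the 3′ end had 11 in both (3.89-fold and 5.30-fold). The ferritin gene FTL also reaches into the window, and no BAX summit fell in it.

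FAS and TNFRSF10B encode cell surface death receptors, for FAS ligand and for TRAIL. FAS (chromosome 10, 88964050 to 89017059) had 2 sites, both called with DMSO and OTS186935 only. The site around its inner start sites, shown above, had a summit 140 bp after the nearest start site with DMSO, with 11 fragments (5.5 to 19.7; 7.22-fold), and 212 bp after it with OTS186935, with 5 fragments (1.6 to 11.7; 4.30-fold). It lies within the extent of the smooth muscle actin gene ACTA2 as well, so the peak is shared by both genes. The site past the 3′ end had 10 fragments in both libraries, at 6.49-fold and 7.40-fold. FAS-AS1, an antisense transcript in the same window, held no summit.

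TNFRSF10B (chromosome 8, 23020133 to 23069031) had 2, 4, 1 and 1 peaks. The site 2929 to 3122 bp inside the gene from its lower coordinate was called in 3 libraries, with 12 fragments with DMSO, 8 with OTS186935 and 9 with doxorubicin (4.45-fold, 3.48-fold and 4.13-fold). A neighbouring site had 12 fragments with DMSO and 9 with OTS186935. OTS186935 alone had 2 more peaks, with 4 fragments (3.58-fold) inside the gene and 6 (2.81-fold) in RHOBTB2, 2935 bp outside it. The combination peak (6 fragments, 2.87-fold, −log10 q 1.05) was not at either site. It lay 4557 bp outside the gene, within RHOBTB2, and ranked above 1.0% of its own list, and its deposited values also matched another height. Without flanks TNFRSF10B had no combination peak. TNFRSF10B-AS1 also lies in the window.

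SESN2, whose product sestrin 2 restrains mTORC1 under stress, had the highest peak density of the members with DMSO, 1.21 peaks per 10 kb, where PPM1D had the lowest, 0.13. SESN2 (chromosome 1, 28259518 to 28282491) had 4, 0, 3 and 2 peaks. It was the only member without an OTS186935 peak, where 15.2% of all genes with a DMSO peak had none. The 3 doxorubicin peaks each overlapped a DMSO peak, and both combination peaks were at these same places.

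The SESN2 site 998 to 1090 bp after the start had 5 fragments with DMSO (1.6 to 11.7), 11 with doxorubicin (5.5 to 19.7) and 10 with the combination (4.8 to 18.4), at 3.06-fold, 6.41-fold and 5.48-fold. The site 12858 to 13035 bp into the gene had 13, 11 and 7 fragments in the same libraries, and the site near the 3′ end had 9 with DMSO and 7 with doxorubicin. The DMSO peak closest to the start, 314 bp from it, had 8 fragments (4.59-fold) and was called in no other library. At each site the intervals overlapped between libraries. With lists of equal length SESN2 had 2, 0, 3 and 2 peaks, and with flanks of 10 kb it gained 1 with OTS186935.

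**Figure D3:**
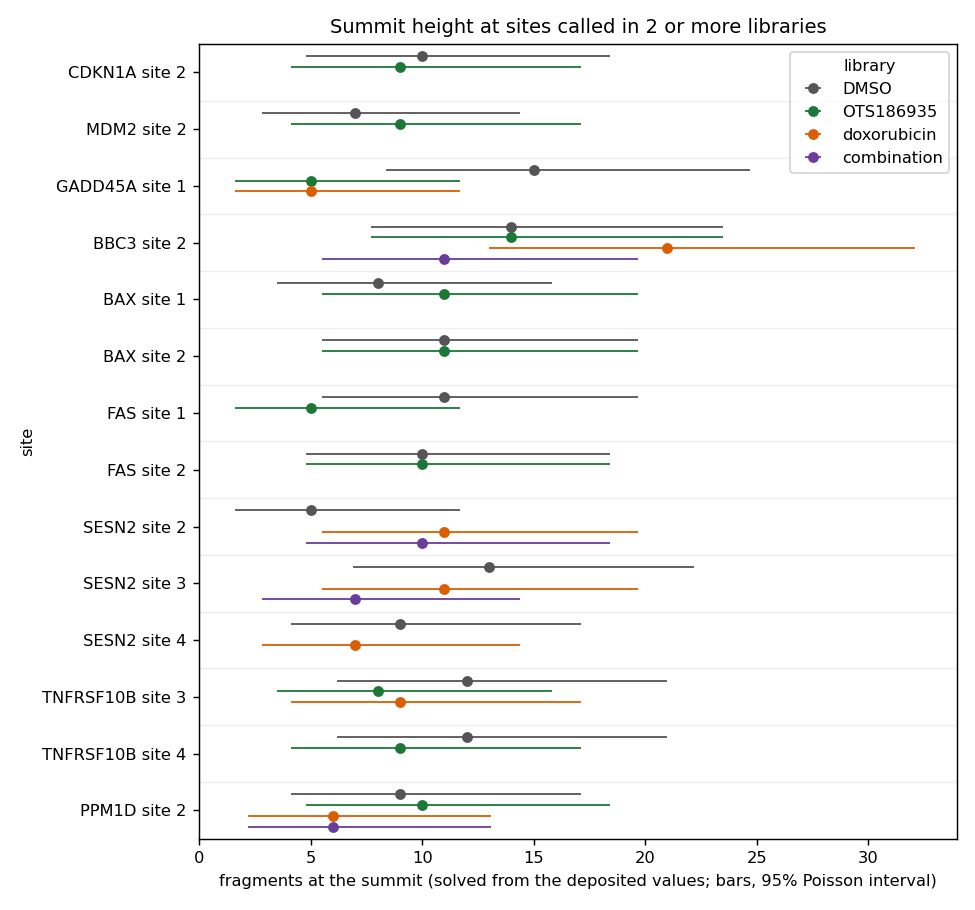
Fragments at the summit (x axis, with 95% Poisson intervals as bars) for the 14 member sites called in 2 or more libraries, coloured by library. No colour appears where no peak was called. The tallest point is BBC3 with doxorubicin at 21 fragments, and at each site the intervals of the libraries overlap.

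Summits near start sites were counted by gene. Of the 8 members with an annotated start in the promoter table, 3, 3, 0 and 1 had a summit within 1 kb of it. The shares over 15813 protein-coding genes in that table were 30.7%, 21.3%, 16.0% and 11.5%. On these few genes the members stood higher in the DMSO, OTS186935 and combination libraries and lower with doxorubicin. GADD45A, not in that table, had summits 519 to 983 bp inside its gene end of lower coordinate. In their own lists the member peaks had median percentiles by −log10 p of 64.8, 48.3, 58.9 and 38.0. A −log10 q of 5 or more was reached by 7 of 19, 4 of 16, 2 of 8 and 0 of 6 member peaks, beside 25.6%, 17.7%, 10.0% and 8.5% of all peaks.

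Against DMSO, 1 of 10 members (SESN2) lacked a peak under OTS186935, 5 of 10 under doxorubicin and 6 of 10 under both drugs. Among all genes with a DMSO peak these shares were 15.2%, 22.7% and 38.8%, and among those with windows as long as the members' 17.8%, 27.3% and 45.4%. No member gained a first peak in these comparisons, since all had one with DMSO. Adding OTS186935 to doxorubicin left GADD45A without a peak (1 of 5, beside 33.9% of all genes with a doxorubicin peak and 40.8% of those with windows of like length), and 4 of 8 doxorubicin peaks were overlapped in the combination (50%, interval 15.7 to 84.3), beside 27.3% of all doxorubicin peaks. Adding doxorubicin to OTS186935 left 6 of 9 members without a peak, beside 36.1% of all genes with an OTS186935 peak and 42.9% of those of like length, while SESN2 had peaks with the combination and none with OTS186935. Of the 16 OTS186935 peaks 2 were overlapped in the combination (12.5%, interval 1.6 to 38.3), beside 25.7% of all. These comparisons share libraries and are not independent.

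A longer list of 43 other p53 target genes had peaks at 35, 31, 25 and 18 genes, or 81.4%, 72.1%, 58.1% and 41.9%. These shares lay close to those of all genes given above, higher in the DMSO and OTS186935 libraries and lower in the others. The peak density in this list was 29.5, 24.4, 20.1 and 12.4 per Mb, each below that of all genes. The highest DMSO folds were at ZMAT3 (9.62-fold), an RNA-binding tumour suppressor gene, TNFRSF10D (9.47-fold), a decoy TRAIL receptor gene, SPATA18 (8.76-fold), a mitochondrial quality control gene, and APAF1 (8.55-fold), the apoptosome scaffold gene. A peak in all 4 libraries was found at 10 of the 43, a lower share than the 39.7% of all genes. Among the 10 were PML, ZMAT3, APAF1 and the translesion polymerase gene POLH.

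The commonest member pattern, peaks with DMSO and OTS186935 alone, was found at 5 of these 43 genes, beside 6.72% of all genes. Among the 5 were RPS27L, XPC and SFN. A peak in a treated library and none with DMSO was found at 5 of 43, led by DRAM1, FUCA1, SESN1 and PMAIP1, beside 8.49% of all genes. SESN1, the paralogue of SESN2, had 0, 3, 2 and 1 peaks, where SESN2 had 4, 0, 3 and 2.

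Among 19 regulators of p53 and its relatives, 16, 16, 12 and 10 had a peak. Their windows are long, with a median of 81.8 kb. MDM4, the MDM2 relative that masks p53, had a peak in all 4 libraries (8.25-fold, 8.48-fold, 7.65-fold and 6.72-fold), as had CDKN2A, which encodes the MDM2 antagonist ARF among its products, the deubiquitinase gene USP7, the acetyltransferase gene CREBBP, and the kinase genes ATR and HIPK2. CHEK1 and KAT5 had peaks in treated libraries and none with DMSO.

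The 18 immediate early genes, such as FOS and ATF3, and the 15 core genes of homologous recombination, such as BRCA1 and RAD51B, serve as comparison lists. The former had a peak at 18, 12, 12 and 6 genes, and the latter at 14, 13, 9 and 9. Of genes with a DMSO peak, 9, 5 and 4 of 10 p53 targets had one in the 3 treated libraries, beside 12, 12 and 6 of 18 immediate early genes and 13, 9 and 9 of 14 recombination genes. Whether these lists differ was not tested, and all lists were chosen with earlier results of these data known.

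**Figure D4:**
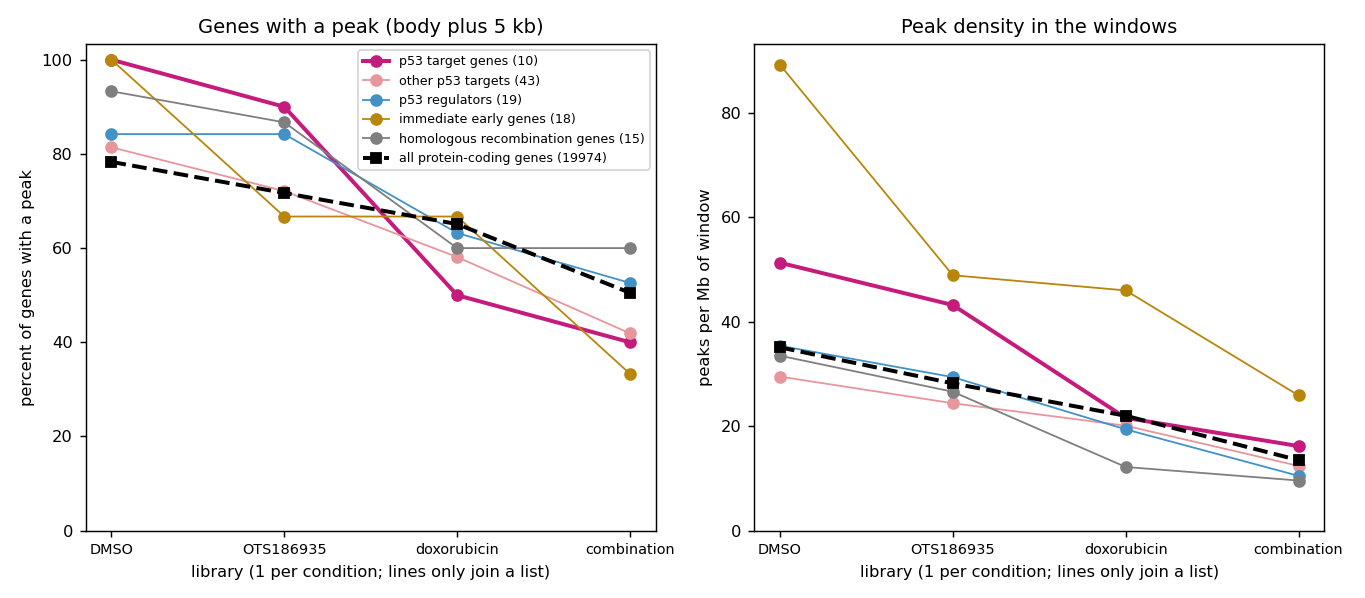
Percent of genes with a γH2AX peak in the body plus 5 kb (left) and peaks per Mb of window (right) in each library, for the 10 p53 target genes, the 4 other lists and all protein-coding genes (dashed). The p53 target genes go from 100% with DMSO to 50% with doxorubicin and 40% with the combination, beside 78.3%, 65.1% and 50.5% of all genes.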

How the data were processed

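Per the labels' protocols, sonicated chromatin of cross-linked SK-UT1 cells was pulled down by an antibody to the phosphorylated form of H2A.X and sequenced. MACS2 2.2.7.1, Bowtie2 2.4.2, bedtools 2.30.0, Picard 2.25.3 and the build hg38 are listed without roles, per the submitters' processing notes. Any input control was, like the calling options, not given in the sources used here. The deposited lists, 1 per library and not pooled, give each peak's fold enrichment (a ratio), −log10 q and −log10 p, plus a score equal to 10 times the −log10 q without its decimals. Positions are printed 1-based.

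Rows that overlapped or touched were merged, keeping the row of highest −log10 p, and peaks were assigned to genes by an overlap of 1 bp with the RefSeq extent (GRCh38.p14) plus 5 kb. Exons were not told apart. Summit height and local background were solved from fold and −log10 p under the MACS2 Poisson model. A whole height matched within 0.002 in 100% of rows, and on data simulated under that model 100% of 1944 heights were recovered. Heights of 3 and 4 fragments, which these lists also hold, were not simulated. A second height also matched in 0.75% to 4.74% of rows per library. Fold is set side by side between lists and ranks peaks within a list only. Fragments are PCR products without molecular identifiers, so intervals cover counting error only.

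The members and gene lists were chosen with earlier results of these data known. All members and all genes sharing their windows were named; of other lists, up to 4 genes each by highest DMSO fold, by a peak in all 4 libraries, by a peak in treated libraries alone, and, for other targets, by the commonest member pattern. Some genes these rules name are not reported here. Alternatives were a −log10 q of 5, flanks of 0, 1 and 10 kb, joining within 1 kb, unmerged rows, lists of equal length, a common −log10 p limit of 3.08 and a reciprocal overlap of 50%. Python 3.11.15, numpy 2.4.6, pandas 2.3.3 and scipy 1.17.1 were used.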

Additional observations from a re-analysis of the deposited data

Results flagged for a closer look

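At 3 members the number of peaks changed in opposite directions with the same drug in 2 contexts. These differences rest on 1 library each and were not tested. How many of all protein-coding genes changed in this way was not counted, so the flag is no trait of these members. For BBC3, OTS186935 against DMSO gave 1 and 2 peaks and the combination against doxorubicin 2 and 1, a difference between the changes of -2. Doxorubicin against DMSO gave 1 and 2 and the combination against OTS186935 2 and 1, also opposite in direction. The difference, -2, is then the same by arithmetic, since both use the same 4 counts, and is no second observation. For SESN2, doxorubicin against DMSO gave 3 and 4 peaks and the combination against OTS186935 2 and 0, a difference of -3. For PPM1D, OTS186935 against DMSO gave 3 and 1 peaks and the combination against doxorubicin 1 and 2, a difference of 3. Doxorubicin against DMSO (2 and 1) and the combination against OTS186935 (1 and 3) were opposite too, with the difference of 3 again fixed by arithmetic. Other settings end some of these. With the gene body alone or flanks of 1 kb, BBC3 had 1 peak in every library. With lists of equal length, in the order DMSO, OTS186935, doxorubicin, combination, PPM1D had 0, 1, 0 and 1 peaks and SESN2 2, 0, 3 and 2, so that no change of either was opposite. At a −log10 q of 5 or more none of the 3 genes changed in opposite directions.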

How the results depend on the processing

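Values are given in the order DMSO, OTS186935, doxorubicin, combination. Among recomputed counts over lists and overlaps, 177 stayed within 1.5 times the reported count and 42 did not, 25 of them at a −log10 q of 5 or more. Among peak counts of single members and shares of all genes, 286 stayed and 66 did not. That limit left a peak at 5, 4, 2 and 0 members, 7, 4, 2 and 0 member peaks, and 1, 0 and 0 DMSO member peaks overlapped by the treated libraries. It left 14, 9, 5 and 1 other p53 targets, 6, 3, 1 and 0 immediate early genes, 9, 6, 3 and 1 recombination genes, and regulators at 9 with DMSO and 4 with the combination. At that limit 37.2%, 23.8%, 12.4% and 6.57% of all genes had a peak. Lists of equal length gave 11, 7 and 5 member peaks in the first 3 libraries, 3 members with doxorubicin, 3, 4 and 2 DMSO member peaks overlapped, 22 and 19 other targets and 10 and 6 immediate early genes with DMSO and OTS186935; CDKN1A, BAX and PPM1D then had 0 DMSO peaks, and BTG2, GADD45A and TNFRSF10B 0 with OTS186935. Flanks of 10 kb gave 29, 25 and 13 member peaks in the first 3 libraries, with 19 and 12 DMSO peaks overlapped by OTS186935 and doxorubicin; SESN2 then had 1 peak with OTS186935, MDM2 1 and BAX 2 with doxorubicin, and CDKN1A and BAX 1 each with the combination. Gene bodies alone gave 5 recombination genes with the combination. Each setting changes the number of peaks or the length searched by construction. Flanks of 1 kb, joined peaks, unmerged rows, a common p limit and reciprocal overlap moved no count over a list by over 1.5 times. For single members, flanks of 1 kb or none left 1 DMSO peak at MDM2, BBC3 and FAS, 1 OTS186935 peak at FAS, and 1 and 0 combination peaks at BBC3 and TNFRSF10B, and unmerged rows gave 2 DMSO peaks at PPM1D. No paired analysis was possible because each condition had 1 library. Depth limits every absence: a site without a peak can hold up to several fragments.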

Other observations

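TNFRSF10B lies in a row of TRAIL receptor genes on chromosome 8, and its neighbours, looked at after their values were seen, had different peaks. In the order DMSO, OTS186935, doxorubicin and combination, TNFRSF10A, the other signalling receptor gene, had 3, 3, 2 and 0 peaks, the decoy receptor gene TNFRSF10C had 2, 2, 0 and 1, and the decoy receptor gene TNFRSF10D had 3, 1, 3 and 1. The highest DMSO folds were 7.82 at TNFRSF10A, 5.37 at TNFRSF10C and 9.47 at TNFRSF10D, beside 4.89 at TNFRSF10B. How reads were placed among these related genes was not tested.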
